A study of Saccharomyces cerevisiae with 2 samples.

Results

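6 gene names of budding yeast, YMR023C, YLR010C, YLR227C, YJL102W, YOL013W-A and YPR108W-A, carry Dbp2p iCLIP positions that lie almost entirely on a neighbouring tRNA gene of the same strand. They are 6 of the 4336 names listed over both replicates. The names were chosen from these data, by the listed positions themselves, so the share of positions on tRNA genes is given as a description and not as a result. RNA touched by Dbp2p, a DEAD-box RNA helicase, was located by iCLIP. In this method protein and RNA are crosslinked with UV light, and the cDNA tends to end at or next to the crosslinked nucleotide. The offset between the read start and the listed position is not given in the sources used here, so every place in a tRNA named here is that of the listed position, and the crosslink itself may lie 1 nt away. Both samples are whole cells of strain BTY140 (MATa his3Δ1 leu2Δ0 met15Δ0 ura3Δ0), in which DBP2 carries the HTBH affinity tag with the marker kanMX6. Cultures grew at 30 °C in YPD to an OD600 near 1.0 before UV irradiation, and the tagged protein was pulled down by its histidine-biotin tag. The 2 samples form 1 group of 2 replicates, an untagged or input library was not used here, and nothing says whether the cultures were separate, so the spread between them may be technical. The value at a position is its share of the signal of its gene name, so the number of reads behind it is not given, and no test over samples is possible. On the tRNA genes each value was a whole multiple of the lowest value of its name and replicate. That lowest value ran from 0.120% in replicate 2 of YOL013W-A to 5.56% in replicate 1 of YLR227C, so some shares are coarse.

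A tRNA folds into a cloverleaf. The acceptor stem joins both ends and carries the amino acid, the D arm and the T arm meet in the elbow of the folded molecule, and the anticodon loop reads the codon on the ribosome. Yeast makes tRNAs as precursors with a 5′ leader and a 3′ trailer that are cut away, and some precursors also hold an intron directly 3′ of the nucleotide that follows the anticodon, just before nucleotide 38 in the usual tRNA numbering.

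Every listed position on an annotated nuclear tRNA gene was under one of the 6 names. Each name went with 1 tRNA gene, so 6 of the 275 genes held a position and 269 held none. No position on a tRNA gene was listed under the tRNA gene's own name. The 269 genes may therefore have been left out of the listing, and their lack of positions says nothing about contact with Dbp2p. No other listed name had a position on a tRNA gene, on either strand, or on the same strand within 20 nt of it, so no name outside the set met the rule for likeness, at least 3 positions with 50% of them on tRNA genes. The tRNA genes are called here by their locus tags, because the annotation used gives no amino acid or anticodon for them. Many yeast tRNAs are encoded by several near-identical genes, and the handling of reads that map to more than 1 of them is not given in the sources used here, so the choice of copy is uncertain.

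The letters of the listed nucleotides show where in each tRNA the listed positions fell. Without an untagged or input library, cDNA ends at a crosslink could not be told apart from cDNA ends of another origin. In the lines that follow, each tRNA is written 5′ to 3′ from its first to its last listed nucleotide, in sacCer3 coordinates. Capitals mark nucleotides listed in both replicates, lower-case letters those listed in 1 replicate, and n those listed in neither.
YNCM0018C under YMR023C, chrXIII:321160-321210, minus strand: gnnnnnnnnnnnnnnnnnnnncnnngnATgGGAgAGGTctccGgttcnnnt
YNCL0002C under YLR010C, chrXII:167965-168025, minus strand: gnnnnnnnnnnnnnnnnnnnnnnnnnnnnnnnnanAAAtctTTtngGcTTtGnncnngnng
YNCL0032C under YLR227C, chrXII:592533-592562, minus strand: CtntgatatcTtcgGatgcAaGgnTtngaa
YNCJ0008W under YJL102W, chrX:233939-233995, plus strand: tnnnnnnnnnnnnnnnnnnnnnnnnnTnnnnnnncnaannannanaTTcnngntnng
YNCO0011W under YOL013W-A, chrXV:301097-301185, plus strand: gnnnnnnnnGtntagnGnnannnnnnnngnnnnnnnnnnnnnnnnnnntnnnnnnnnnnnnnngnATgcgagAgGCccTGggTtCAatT
YNCP0016W under YPR108W-A, chrXVI:744284-744343, plus strand: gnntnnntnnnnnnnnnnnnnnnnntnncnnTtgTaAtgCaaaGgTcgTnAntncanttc

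In all 6 the letters crowd into the middle and the 3′ part of the molecule, and the final nucleotides of the gene are missing from each. The listed nucleotide closest to the 3′ end lay 12 nt before the last nucleotide in YNCP0016W, 13 nt before it in YNCM0018C and in YNCO0011W, 14 nt in YNCL0032C, 16 nt in YNCJ0008W and 21 nt in YNCL0002C.

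The names themselves are those of other genes. YMR023C is MSS1, a mitochondrial protein of tRNA modification, and its tRNA gene YNCM0018C is at chromosome XIII, 321147 to 321219. YLR010C is TEN1, which protects chromosome ends, with YNCL0002C at chromosome XII, 167944 to 168025. YLR227C is ADY4, a spindle pole protein of sporulation, with YNCL0032C at chromosome XII, 592519 to 592619. YJL102W is MEF2, a mitochondrial translation factor, with YNCJ0008W at chromosome X, 233939 to 234011. YOL013W-A and YPR108W-A did not match the annotation table. Their positions lay on YNCO0011W, at chromosome XV, 301097 to 301198, and on YNCP0016W, at chromosome XVI, 744284 to 744355.

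Replicate 1 listed 97 positions under the 6 names, of which 86 lay on the tRNA genes, and replicate 2 listed 122, of which 114 did. They were 1.12% of the 8666 positions of replicate 1 and 0.674% of the 18088 of replicate 2. The share on tRNA genes was 88.7% and 93.4%. By name, 12 of 15 positions of YMR023C were on the tRNA gene in replicate 1 and 22 of 24 in replicate 2, and for YLR010C 13 of 15 and 17 of 18. For YLR227C they were 10 of 11 and 23 of 24, for YJL102W 9 of 10 and 8 of 11, for YOL013W-A 19 of 22 and 29 of 29, and for YPR108W-A 23 of 24 and 15 of 16. YJL102W and YPR108W-A thus had fewer tRNA positions in the replicate that listed more positions in all.

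Over the 503 nt of the 6 genes the density was 171 (replicate 1) and 227 (replicate 2) positions per kilobase. The small nucleolar RNAs (snoRNAs), short stable RNAs that mostly guide modification of ribosomal RNA, had 153 and 91.5 positions per kilobase. For them every position under a snoRNA name was counted, over the length of all annotated snoRNA genes. For the tRNA genes only positions inside the 6 genes were counted. The 6 genes were chosen for their positions and the snoRNA genes were taken as a class, so the densities stand side by side without a test.

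Within the tRNA gene, most of the signal lay from nucleotide 10, where the D arm begins, to the T arm, as a mean over the 6 names. The T arm was taken as the 17 nt before the last 8 nt of the gene, which are the 3′ strand of the acceptor stem and the base after it, and the first 9 nt as the 5′ acceptor strand with its link to the D arm. This placement was checked with the letters: all 19 listed nucleotides at the nearly invariant places of the T loop and its closing base (nucleotides 53 to 58) carried the usual letter. As a mean over the 6 names, the stretch from nucleotide 10 to the T arm held 76.7% of the tRNA signal in replicate 1 and 75.9% in replicate 2, or 76.3% ± 0.565 (SD, n = 2), on 58.5% of the length. The T arm held 21.8% and 22.4%, or 22.1% ± 0.385 (SD, n = 2), on 20.7% of the length. Its mean was 17.2% with each position moved 1 nt towards the 5′ end and 27.4% with each moved 1 nt towards the 3′ end, both farther from 22.1% than the replicates were from each other. The first 9 nt held 1.43% and 1.69%, and the last 8 nt, 9.76% of the length, held no position in either replicate. Whether reads that start so near the 3′ end could be mapped was not tested, so their absence says nothing about contact there.

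The means were close, while names and replicates differed. The lowest value of YLR227C was 5.56% of its signal in replicate 1 and 0.295% in replicate 2. In this name the T arm held 70.6% of the tRNA signal in replicate 1 and 27.8% in replicate 2. In YJL102W it held 3.03% and 25.6%, and in YPR108W-A 11.5% and 24.3%. In YLR010C it held 5.56% and 1.15%, in YMR023C 15.0% and 21.5% and in YOL013W-A 25.3% and 34.0%. The T arm share of YJL102W, 14.3% over both replicates, was 38.3% with each position moved 1 nt towards the 3′ end, and that of YLR010C, 3.35%, was 0% without the lowest value of the name. Nucleotides 25 to 46 nt before the last one, a stretch chosen after the values were seen, held at least 63.6% in every name and replicate except YLR227C in replicate 1, with 29.4%.

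**Figure D1:**
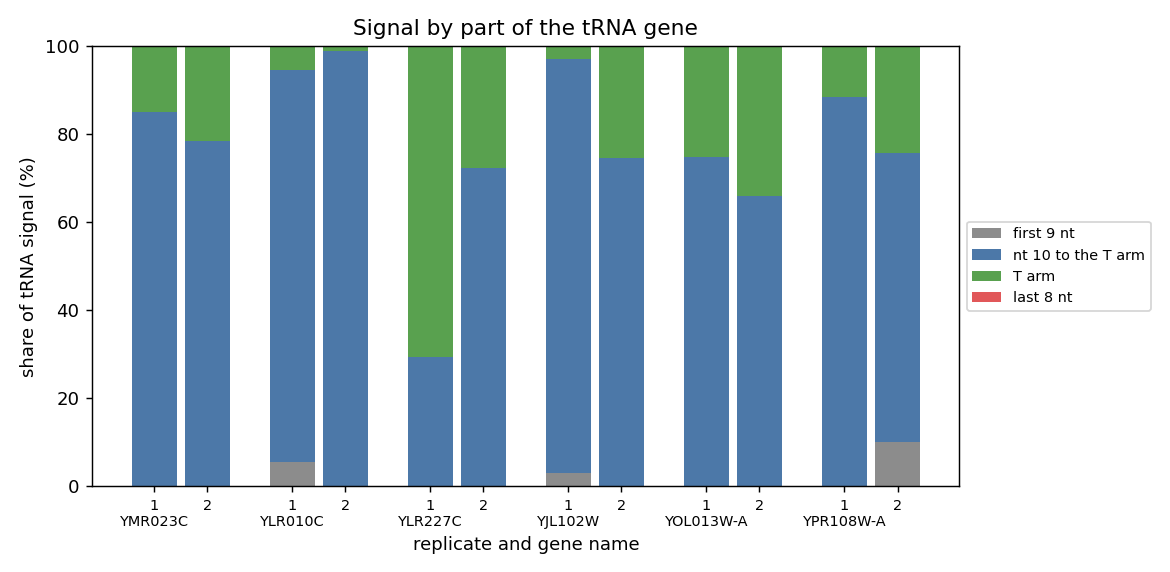
Share of each name's tRNA signal (%, stacked bars) in the first 9 nt, from nucleotide 10 to the T arm, in the T arm and in the last 8 nt, for replicates 1 and 2 of each name. The stretch before the T arm takes most of each bar except YLR227C in replicate 1, where the T arm holds 70.6%, and no bar has a part for the last 8 nt.

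The 3 genes of 72 or 73 nt have no room for an intron or a long variable region, so their middle part could be split further by counting from the 3′ end: 5 nt of variable region, 17 nt of anticodon arm before it, and the D arm before that. The letters fitted this split at nucleotide 33, a T in the 1 gene where it was listed, at nucleotide 37, a purine in all 3, at nucleotide 48, a pyrimidine in all 3, and in the 3 anticodon stem pairs with both letters listed. The D arm was nearly empty, with 1 position in either replicate, nucleotide 10 of YNCM0018C, which held 1.27% of the signal of YMR023C in replicate 2. The anticodon arm held 66.7% and 51.3% of the tRNA signal in YMR023C, 84.9% and 44.3% in YPR108W-A, and 78.8% and 2.22% in YJL102W. The variable region held 18.3% and 26.0% in YMR023C, 3.60% and 21.4% in YPR108W-A and 15.2% and 72.2% in YJL102W. In each of the 3 names the anticodon arm had the lower share in replicate 2 and the variable region the higher one.

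The 7 nt of the anticodon loop alone held 53.3%, 51.5% and 71.2% of the tRNA signal in YMR023C, YJL102W and YPR108W-A in replicate 1. In replicate 2 they held 28.8% and 37.1% in YMR023C and YPR108W-A and had no position in YJL102W. The loop is 9.63% of the length on average, so the loop of YMR023C and of YPR108W-A stood above its share of length in both replicates and that of YJL102W in replicate 1 alone. In YMR023C this rested on the last nucleotide of the loop, which held 51.7% and 26.9% of the tRNA signal. Moved 1 nt towards the 3′ end, that position would lie outside the loop. The loop shares were not recomputed with moved positions.

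**Figure D2:**
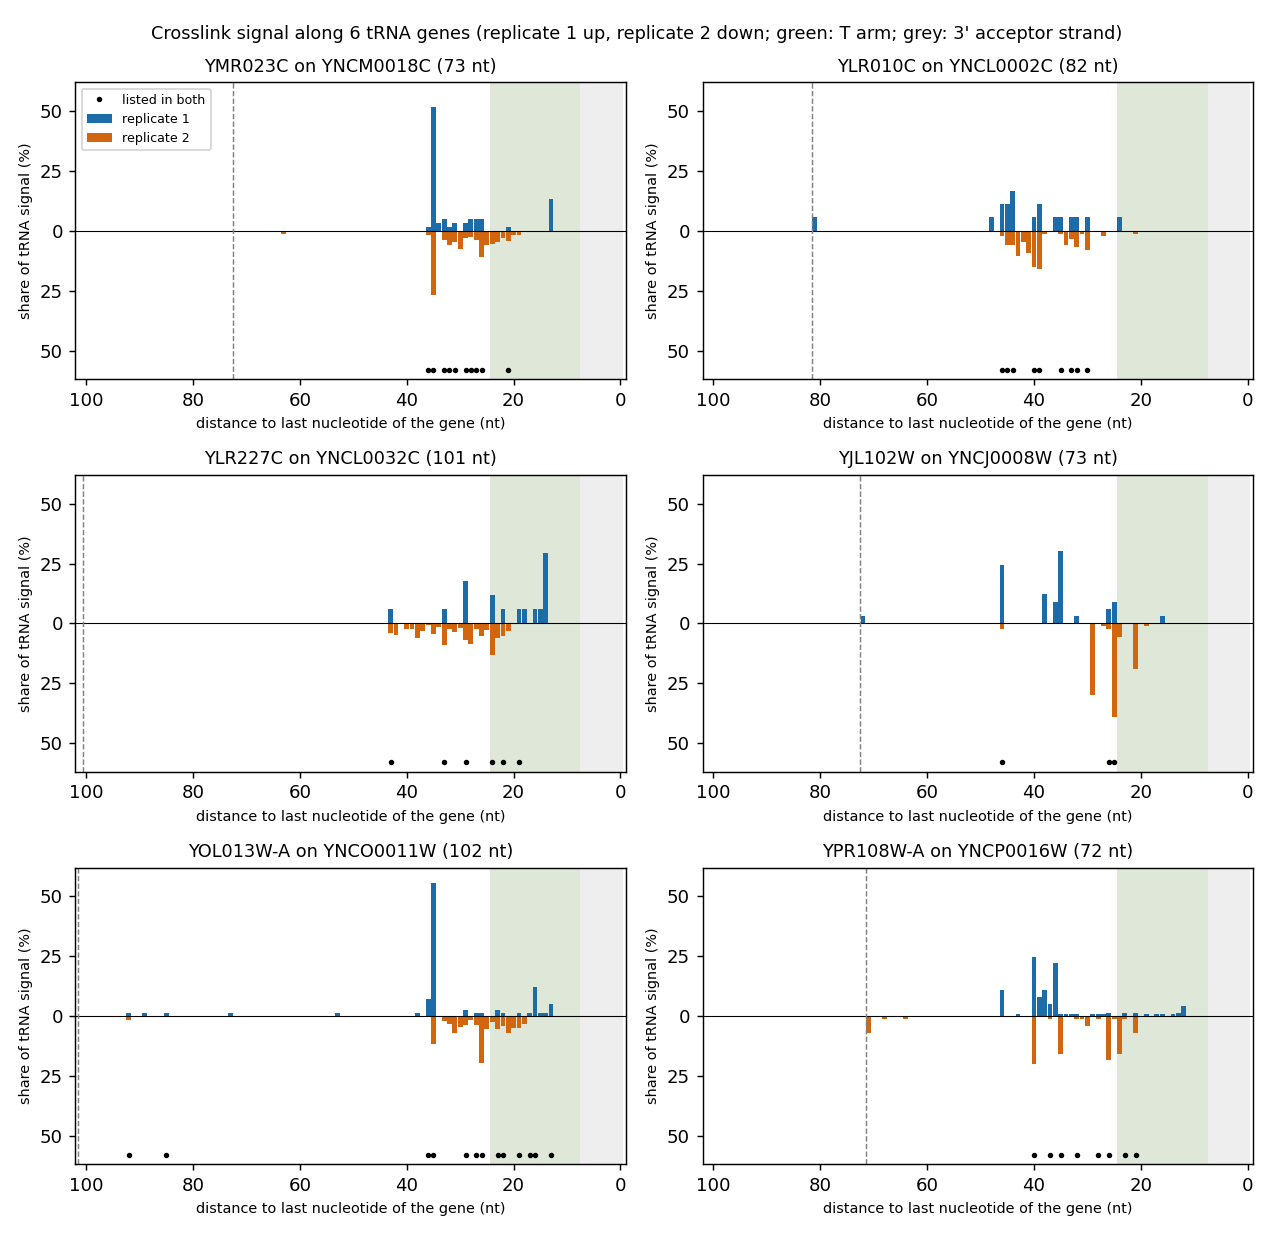
Share of tRNA signal (%) at each nucleotide of the 6 tRNA genes, by distance to the last nucleotide of the gene (nt), with replicate 1 upwards and replicate 2 downwards; dots mark nucleotides listed in both replicates, the dashed line is the 5′ end of the gene, green is the T arm and grey the 3′ acceptor strand. YMR023C has its tallest bar 35 nt before the end in both replicates, with 51.7% and 26.9%, while in YJL102W the tall bars of the replicates stand at different nucleotides.

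The strongest nucleotide was the same in both replicates in 2 of the 6 names. In YMR023C it was the T at coordinate 321182, nucleotide 38 and the last of the anticodon loop, with 49.2% of the name's signal in replicate 1 and 26.8% in replicate 2. In YPR108W-A it was the T at coordinate 744315, 32 nt into the gene and nucleotide 33 in the usual numbering, just before the anticodon, with 24.3% and 18.7%. The A at 744319, the purine that follows the anticodon, held 22.1% in replicate 1 and was not listed in replicate 2, where its 3′ neighbour at 744320 held 14.7%, against 0.714% in replicate 1.

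The other 4 names had different strongest nucleotides in the replicates. In YOL013W-A these were the T at 301163, with 51.7% in replicate 1 and 11.9% in replicate 2, and the C at 301172, with 1.12% and 19.6%. In YJL102W they were the A at 233976, nucleotide 38, with 25.6% in replicate 1 and no listing in replicate 2, and the T at 233986, nucleotide 48, with 7.69% and 37.6%. In YLR010C the A at 167988 led the tRNA gene in replicate 1 with 12.5%, against 5.68% in replicate 2, where the T at 167983 led with 15.9%, against 8.33%. The values of YLR010C in replicate 1 were multiples of 4.17%, so the lead of this A over this T there was a small one. In YLR227C the A at 592533, in the T loop, held 27.8% in replicate 1 and was not listed in replicate 2, where the A at 592543, the first nucleotide of the T arm, led with 13.0%, against 11.1%. The leading nucleotide of replicate 2 lay 3′ of that of replicate 1 in YOL013W-A, YJL102W and YLR010C, and 5′ of it in YLR227C.

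The nucleotide 35 nt before the last one, which is nucleotide 38 where the variable region is short, held the highest mean share across the names. It was the strongest in YMR023C in both replicates and in YJL102W and YOL013W-A in replicate 1. As a mean over the 6 names it held 23.9% of the tRNA signal in replicate 1 and 10.02% in replicate 2, the highest of all distances in both, and 5 names were listed there in each replicate. Its 5′ neighbour held 7.64% and 0.386%. In replicate 2 the next highest were 26 nt and 25 nt before the end, with 9.43% and 9.05%, against 2.28% and 1.52% in replicate 1.

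**Figure D3:**
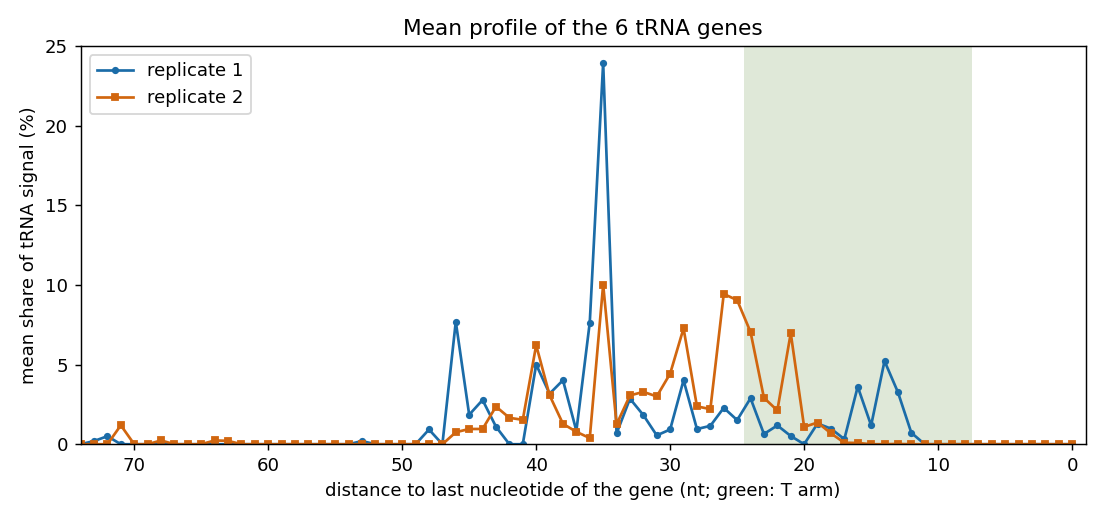
Mean share of tRNA signal over the 6 names (%), by distance to the last nucleotide of the gene (nt), for replicate 1 (circles) and replicate 2 (squares), with the T arm in green. Both lines peak 35 nt before the end, at 23.9% and 10.02%, replicate 2 is higher at every distance from 32 to 20 nt, and replicate 1 is higher from 16 to 12 nt, in the T loop and the 3′ strand of the T stem.

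The 3 longer genes could be split only in part, since a length over 74 nt can come from an intron or from a long variable region and the annotation used gives neither. In YNCO0011W, of 102 nt, the letters from 25 to 35 nt before the end were the same as in YNCM0018C at 9 of 11 nucleotides. They were the same as in YNCP0016W at 5 of 11 and as in YNCJ0008W at 1 of 6, so the letters do not settle the placing. If its variable region is as short as that of YNCM0018C, its strongest nucleotide of replicate 1, a T, is at the place of nucleotide 38. If its D arm is also as long as that of YNCM0018C, the 29 nt before this T are the place where yeast tRNA genes hold an intron. Neither length was tested. That stretch, nucleotides 38 to 66 of the gene, had 3 positions with 9.64% of the tRNA signal in replicate 1, mostly at its last nucleotide (coordinate 301162, 6.74% of the name's signal), and 1 position with 0.120% in replicate 2. The 23 nt that follow it, nucleotides 67 to 89, held 85.5% and 97.5%. Listed positions in the stretch were thus few in both replicates, whichever part of the tRNA it is.

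YNCO0011W was also the gene with most positions in its 5′ part, where nucleotides 10 and 17 were listed in both replicates with 0.120% to 1.56% of the name's signal. In YNCL0032C, of 101 nt, nucleotides 1 to 57 had no position in either replicate, and the 19 nt from nucleotide 58 to the T arm held 29.4% of the tRNA signal in replicate 1 and 72.2% in replicate 2. The C at nucleotide 58, coordinate 592562, was the first listed nucleotide in both. In YNCL0002C, of 82 nt, counting from the 5′ end with nucleotides 27 to 43 as the anticodon arm gave this arm 61.1% and 69.0% of the tRNA signal, and the 14 nt after it 27.8% and 29.9%. That count supposes a D arm of the usual length, which was not tested.

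Nucleotides listed in both replicates were common on these genes. Of the 151 tRNA nucleotides listed in either replicate 49 were listed in both, each with the same letter. That is 57.0% of the positions of replicate 1 and 43.0% of those of replicate 2, where for all other names 7.04% and 3.36% of positions were also in the other replicate, and for snoRNA names 16.4% and 27.4%. A gene with many listed nucleotides shares more of them for that reason alone, and replicates 1 and 2 listed 9.90% to 31.9% and 11.0% to 30.1% of the nucleotides of a tRNA gene. With neighbours closer than 6 nt merged into 1 position, 2 nucleotides were shared. That merge kept only the lowest coordinate of each group of neighbours, so it compared single end points and does not measure how well the replicates overlap. Within 5 nt, 75 of the 86 positions of replicate 1 had a position of replicate 2. Without the lowest value of each name 23 nucleotides were shared.

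By name the sharing ran from 13 nucleotides in YOL013W-A, 10 in YMR023C and 9 in YLR010C to 8 in YPR108W-A, 6 in YLR227C and 3 in YJL102W. Of the 12 nucleotides of YMR023C in replicate 1, 10 (83.3%) were also listed in replicate 2, where 30.1% of the gene was listed. Of the 9 of YJL102W, 3 (33.3%) were, where 11.0% was listed. The shared nucleotides carried 92.8% of the tRNA signal of YOL013W-A in replicate 1 and 56.7% in replicate 2, and 83.3% and 67.3% in YMR023C. They carried 77.8% and 64.4% in YLR010C, 52.9% and 38.5% in YLR227C, 39.4% and 43.3% in YJL102W and 36.0% and 67.1% in YPR108W-A. The sum of the smaller of both shares at each nucleotide, which is 100% for identical profiles, was 53.3% in YMR023C, 46.2% in YLR010C, 33.9% in YLR227C, 27.9% in YPR108W-A, 23.8% in YOL013W-A and 13.5% in YJL102W. YMR023C was thus the name with the most alike profiles and YJL102W the one with the least.

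**Figure D4:**
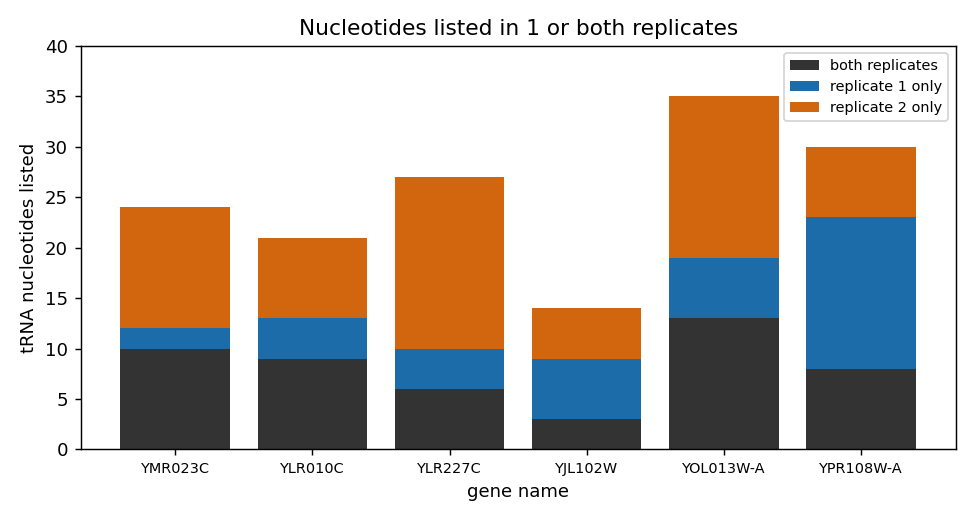
Number of tRNA nucleotides listed in both replicates (dark), in replicate 1 only (blue) and in replicate 2 only (orange) for each gene name (stacked bars). YOL013W-A has the most shared nucleotides, 13, and YJL102W the fewest, 3.

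The shared nucleotides of YMR023C filled 9 of the 11 places from nucleotide 37 to nucleotide 47, the 3′ side of the anticodon arm and the variable region, with 1.59% to 49.2% of the name's signal each in replicate 1 and 1.59% to 26.8% in replicate 2. Those of YLR010C lay from nucleotide 36 to nucleotide 52 and none held over 15.9%. Those of YOL013W-A were the most spread out, from nucleotide 10 to nucleotide 89, with 6 of 13 in the T arm. In YJL102W they were nucleotides 27, 47 and 48, the first of the anticodon arm and the end of the variable region.

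Runs of neighbouring nucleotides were longer in replicate 2 in 5 of the 6 names. The longest run was 21 nt in YOL013W-A (nucleotides 66 to 86), 20 nt in YLR227C (61 to 80), 17 nt in YMR023C (40 to 56) and 9 nt in YLR010C (36 to 44) in replicate 2, against 5, 3, 6 and 3 nt in replicate 1. YJL102W had runs of 4 and 2 nt in the same order, and in YPR108W-A the order was opposite, with 4 nt in replicate 2 and 9 nt (32 to 40) in replicate 1. YOL013W-A, YLR227C, YMR023C and YLR010C also had more listed tRNA nucleotides in replicate 2, and YPR108W-A had fewer, 15 against 23. YJL102W had 8 in replicate 2 and 9 in replicate 1. More listed nucleotides can give longer runs for that reason alone.

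G took a larger share of the positions on the tRNA genes than elsewhere. It made up 29.1% of their positions in replicate 1 and 29.8% in replicate 2, against 12.4% and 16.4% for all other names and 13.3% and 16.4% for snoRNA names. A took a smaller share, 25.6% and 20.2%, against 45.8% and 39.0% for all other names. The base make-up of the full genes was not used here, so these shares were not corrected for it. By signal, as a mean over the 6 names, G held 17.01% and 23.5%, less than its share of positions. T led by signal, with 46.7% and 42.2%, A held 31.8% and 21.5%, and C had the lowest share, with 4.48% and 12.7%.

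The 19 positions off the tRNA genes fell into 2 kinds. The first were 6 positions at most 11 nt upstream of a tRNA gene, where the 5′ leader of a precursor would lie, and 5 of them were in replicate 1. They were the A at 168036, 11 nt upstream of YNCL0002C, with 20.8% of the signal of YLR010C and so its strongest position in replicate 1, and the T at 168026, 1 nt upstream, with 4.17%. YJL102W had an A 9 nt upstream of YNCJ0008W with 15.4%, and YMR023C had A at 7 nt and at 9 nt upstream of YNCM0018C with 1.59% each. The remaining one was an A 2 nt upstream of YNCP0016W, with 6.67% of the signal of YPR108W-A in replicate 2. None was listed in both replicates, and no position lay within 20 nt downstream of a tRNA gene, where the trailer begins.

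The second kind were 13 positions at 27 nt to 2073 nt from the tRNA gene. Of these, 6 lay inside the annotated reading frame of the name, 2 in MSS1, 1 in TEN1 and 3 in MEF2, and they held 0.318% to 1.59% of the name's signal each. ADY4 had no position inside its reading frame. The largest of the second kind were a G at 592398, 121 nt downstream of YNCL0032C, with 5.56% of YLR227C in replicate 1, and a T at 301323, 125 nt downstream of YNCO0011W, with 4.49% of YOL013W-A in replicate 1. The signal deposited under these gene names therefore came almost wholly from the tRNA genes: 93.3% to 100% of it, except in replicate 1 of YLR010C (75.0%) and YJL102W (84.6%), where the upstream positions held the rest.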

How the data were processed

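Each replicate has a table deposited by the authors, with chromosome, position, strand, base, gene name and a number called normalized counts per the file headers. These deposited numbers are a fraction of the gene name's signal at the position: none is above 1, and each name adds up to 1 within 1e-06. Depth is therefore not given, and no interval or floor was computed. The submitters' processing notes name CASAVA, TopHat and the build sacCer3 without versions or roles. Duplicate removal, multiple mapping and minimum values are not given in the sources used here. tRNA genes came from a RefSeq table of assembly R64, with the coordinates of sacCer3; mitochondrial tRNAs were left out, and strand was read from the locus tag. Of the 6 names 4 matched the table by locus tag. Letters were taken from the deposited tables, since no genome sequence was used here.

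A position counted as on a tRNA gene inside its span on the same strand. Parts of the tRNA were counted from the gene ends as given in the text. The code that turns coordinates into nucleotides was run on simulated positions in genes of at most 74 nt. That run checks the code and not the placing of the tRNA arms. With 1 group of 2 replicates and names picked from these values, no test was run. The members and lists, and the rule that names all 6 gene names and every tRNA gene holding their positions, were chosen with earlier results of these data known; the split of the middle part and the stretches described were chosen after the data were seen. Alternatives were wider spans, either strand, shares of positions or of signal, positions merged within 5 nt, positions moved by 1 nt, and values without the lowest or without a replicate. Python 3.11.15 with numpy 2.4.6, pandas 2.3.3 and matplotlib 3.10.9 was used.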

Additional observations from a re-analysis of the deposited data

How the results depend on the processing

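The mean share of positions on the tRNA genes, 91.1% over both replicates, was 63.6% with neighbours within 5 nt merged and 95.9% without the lowest value of each name, and either replicate alone gave 88.7% to 93.4%. The mean T arm share of 22.1% became 28.2% as a share of positions, 17.2% or 27.4% with each position moved 1 nt towards the 5′ or the 3′ end, and 20.9% without the lowest values. The share from nucleotide 10 to the T arm, 76.3%, became 68.3%, 82.2%, 70.7% and 78.5% under the same 4 changes. By name, the T arm share of YJL102W, 14.3% over both replicates, became 38.3% and its share from nucleotide 10 to the T arm, 84.2%, became 60.2% with positions moved 1 nt towards the 3′ end. The T arm share of YLR010C, 3.35%, became 0.575% with positions moved 1 nt towards the 5′ end and 0% without the lowest values, and that of YPR108W-A, 17.9%, became 10.4% with the move towards the 5′ end. As shares of positions the T arm had 24.3% in YJL102W, 6.79% in YLR010C and 27.4% in YPR108W-A. A replicate alone gave 21.8% to 22.4% and 75.9% to 76.7%. The 49 nucleotides in both replicates became 75 within 5 nt, 2 with neighbours merged and 23 without the lowest values, since these alternatives count near or fewer positions. The merge kept only the lowest coordinate of each group of neighbours. Wider spans, shares of signal and a 1 nt tolerance moved nothing by more than the replicate spread or 1.5 times. The 2 names with the same strongest nucleotide and the absence of other names on tRNA genes did not change under the alternatives run for them. Leaving out a replicate gives no value for nucleotides shared or strongest in both. Depth per position is not given: 47 tRNA positions of replicate 1 and 25 of replicate 2 were at the lowest value of their name. No paired analysis was possible because the samples form 1 group and no test was run.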
